A study of Mus musculus with 18 samples.

Results

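The Egr genes encode 4 zinc finger transcription factors, and the Nab genes encode 2 corepressors that bind Egr proteins. These 6 genes (Egr1, Egr2, Egr3, Egr4, Nab1 and Nab2) were taken by symbol from the 55487 genes of each deposited count table. They were chosen with earlier results of these data known, which had shown more Egr1 and Egr2 RNA where Smndc1, a splicing factor, was targeted. Their differences between shSmndc1 and EV, and between negative cells and EV_RIP, are therefore given as a description without a p. P-values for these 6 genes are given only for positive cells, which share control or sorted libraries with those comparisons. Genes of other lists, named further on, are tested in every comparison. All 6 genes passed the filter on low counts in both experiments.

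All 18 libraries were made from alphaTC1, a mouse line of pancreatic alpha cells. Experiment 1 compared cells transduced with an empty vector (EV, 3 libraries) with cells given an shRNA to Smndc1 (shSmndc1, 3 libraries), on day 5. In experiment 2 every group also carried RIP-mCherry, a red reporter under the rat insulin promoter, and the labels give no day. Its groups were empty vector cells (EV_RIP, 4 libraries), and cells with the Smndc1 shRNA sorted as reporter-negative (shSmndc1_RIP_neg, here negative cells, 4) or reporter-positive (shSmndc1_RIP_pos, here positive cells, 4). Sorting is named for the shRNA groups and left unsaid for EV_RIP, and nothing states that replicates came from separate cultures. P-values therefore measure only how far these libraries differ, and that spread may be technical.

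Libraries held 8084574 to 103048766 counts, and CPM below are counts scaled by TMM-adjusted library size. Negative replicates 3 and 4 stood apart, with 8084574 and 23744051 counts and 161 and 45.4 CPM of the nuclear RNA Rn7sk, which is not polyadenylated. In the 4 positive libraries Rn7sk reached at most 4.68 CPM. Smndc1 fell in shSmndc1 from 39.1 ± 3.54 to 10.2 ± 0.545 CPM (SD, n = 3; edgeR adjusted p = 0.00145). In experiment 2 it stood at 44.5 ± 7.88 CPM in EV_RIP, 37.0 ± 9.51 in negative cells and 20.1 ± 4.51 in positive cells (SD, n = 4). It fell in positive cells against EV_RIP (edgeR adjusted p = 0.00384), and in negative cells the test did not pass (adjusted p = 0.378), so no knockdown is shown there. The glucagon gene Gcg, which defines alpha cells, was at 3774 to 12020 CPM in the other groups and at 14370 to 19420 CPM in positive cells (edgeR adjusted p = 0.00978 against EV_RIP), and another alpha marker, Gc, was at 0 in every library. The leukocyte gene Ptprc did not exceed 0.481 CPM in any library, and Sst of delta cells did not exceed 0.12 CPM. The 5 summed leukocyte markers reached 30.5 CPM and the 5 fibroblast markers 11.3 CPM. The 7 acinar and duct markers summed to 13.3 to 18.6 CPM in EV and 24.4 to 35.3 in shSmndc1. In experiment 2 they summed to 11.6 to 16.2 CPM in EV_RIP, 21.5 to 26.0 in negative cells and 35.7 to 80.8 in positive cells. Of the 4 tested, Spp1 alone rose in positive cells, from 6.27 ± 3.79 to 43.0 ± 19.7 CPM (SD, n = 4; edgeR adjusted p = 0.00361). In negative cells 0 of 4 passed, and in shSmndc1 Spp1 and Cel rose. Of 6 beta cell markers, 5 were tested in experiment 2 and 4 rose in positive cells, among them the insulin gene Ins2 from 1.74 ± 1.27 to 10.1 ± 4.12 CPM (SD, n = 4; edgeR adjusted p = 0.00701). In shSmndc1 2 of 4 rose, Ins2 and Mafa, and in negative cells 0 of 5 did, while Pdx1 was at or near 0 throughout. Over all tested genes 8.47% rose in positive cells, 7.22% in shSmndc1 and 8.17% in negative cells. The 4 endothelial markers summed to 1.13 to 1.87 CPM in EV_RIP and 2.12 to 5.89 CPM in negative cells, mostly Pecam1, while Cdh5 was at most 0.201 CPM in any library. The part of other cell types in the results was not tested.

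Egr genes belong to the immediate-early genes, which cells transcribe within minutes of a growth factor, depolarisation or stress without new protein synthesis. The usual route runs through the ERK kinases to SRF and its ternary complex partners, which bind CArG boxes in their promoters. Egr proteins bind GC-rich sites through 3 zinc fingers, and Nab1 and Nab2 join many of those sites and repress transcription, Nab2 through the NuRD deacetylase complex. Egr proteins also induce Nab2, which closes a feedback loop. In islets, Egr1 is known as a gene that responds to glucose and calcium.

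Promoter windows of 250 bases before a transcript start were matched in RefSeq (GRCm38.p6) for 4 of the 6 genes, Egr2, Egr4, Nab1 and Nab2, in 8 windows. Both strands were searched for 3 motifs: the CArG box, the Egr site GCGNGGGCG and the full CREB site TGACGTCA. They occur in 1.47%, 4.7% and 1.55% of the 32851 windows of the table. Windows of Egr2 and Egr4 are shown because both genes encode members of the same family yet differ in exact matches to the CArG box. Only exact matches were counted, which leaves out near ones such as ccatgtttgg in the Egr4 window. The capitals mark the CArG box, which lies 63 to 72 bases before the Egr2 start of that window. The Egr4 window holds none of the 3 motifs. Egr2 has other starts, and its window farthest upstream, chr10:67535249-67535498, holds none of them either.
Egr2, chr10:67537619-67537868, plus strand: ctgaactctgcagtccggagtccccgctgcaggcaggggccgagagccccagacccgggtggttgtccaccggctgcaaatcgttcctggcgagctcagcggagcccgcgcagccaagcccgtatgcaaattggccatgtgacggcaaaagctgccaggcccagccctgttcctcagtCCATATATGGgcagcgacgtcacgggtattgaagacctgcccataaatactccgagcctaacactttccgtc
Egr4, chr6:85513590-85513839, minus strand: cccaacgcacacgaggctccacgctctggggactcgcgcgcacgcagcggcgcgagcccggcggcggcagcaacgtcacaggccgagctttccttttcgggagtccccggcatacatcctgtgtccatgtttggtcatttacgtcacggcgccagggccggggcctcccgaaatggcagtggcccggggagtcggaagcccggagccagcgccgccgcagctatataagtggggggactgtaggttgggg
A second CArG box stands before another Egr2 start, and 3 Egr sites stand before the Nab1 start. These sites are shown with up to 10 bases on either side, in the direction of the gene, because Nab1 fell in positive cells, where Egr1 rose.
Egr2, chr10:67537484-67537513, plus strand: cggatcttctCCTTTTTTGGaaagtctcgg
Nab1, chr1:52500571-52500599, minus strand: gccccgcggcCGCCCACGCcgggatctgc
Nab1, chr1:52500539-52500567, minus strand: actcggccgcGCGTGGGCGggagccggag
Nab1, chr1:52500468-52500496, minus strand: gcggggcgggGCGGGGGCGgcggaggtgg
The Nab1 window lies for 231 of its 250 bases inside the first exon of a longer GENCODE transcript. The Nab2 window holds none of the 3 motifs. These matches describe letters only, and no binding was measured.

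The gene models share features that the choice by name did not use. In GRCm38, Egr1 lies at chr18:34859823-34864984, Egr2 at chr10:67535475-67542188, Egr3 at chr14:70077203-70082614 and Egr4 at chr6:85511121-85513589. Nab1 lies at chr1:52457294-52500679 and Nab2 at chr10:127660918-127668568. Each Egr gene has 2 exons in the GENCODE transcript with the longest coding sequence, and 16.7% of 21847 coding genes have 2 or fewer. Nab1 has 8 exons and Nab2 has 7. ATTTA, a word known from short-lived mRNAs, occurs per kilobase of the last untranslated part 1.64, 2.5, 2.65 and 0 times in Egr1 to Egr4, 3.12 times in Nab1 and 3.99 times in Nab2. The median over 20053 coding genes is 1.195.

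In empty vector cells the Egr genes were nearly silent and the Nab genes were not. Levels of different genes are compared per length, in the deposited FPKM. In EV, Nab1 stood at 20.9 ± 1.91 FPKM and Nab2 at 10.1 ± 1.37, against 1.16 ± 0.378 for Egr4, 0.569 ± 0.090 for Egr1, 0.187 ± 0.054 for Egr3 and 0.112 ± 0.018 for Egr2 (SD, n = 3). In EV the ranges of these genes did not overlap. EV_RIP had the same first 4 genes in order, with 17.6 ± 3.24 for Nab1, 9.61 ± 0.924 for Nab2, 0.862 ± 0.255 for Egr4 and 0.512 ± 0.121 for Egr1 (SD, n = 4). Egr2 stood at 0.179 ± 0.059 and Egr3 at 0.110 ± 0.026 FPKM there, with ranges that overlapped, and those of Egr4 and Egr1 touched at 0.620 and 0.622 FPKM. The low genes rest on few reads: 9 to 90 counts per library for Egr3, 14 to 108 for Egr2 and 39 to 289 for Egr4. Egr1 had 87 to 2752 counts.

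**Figure D1:**
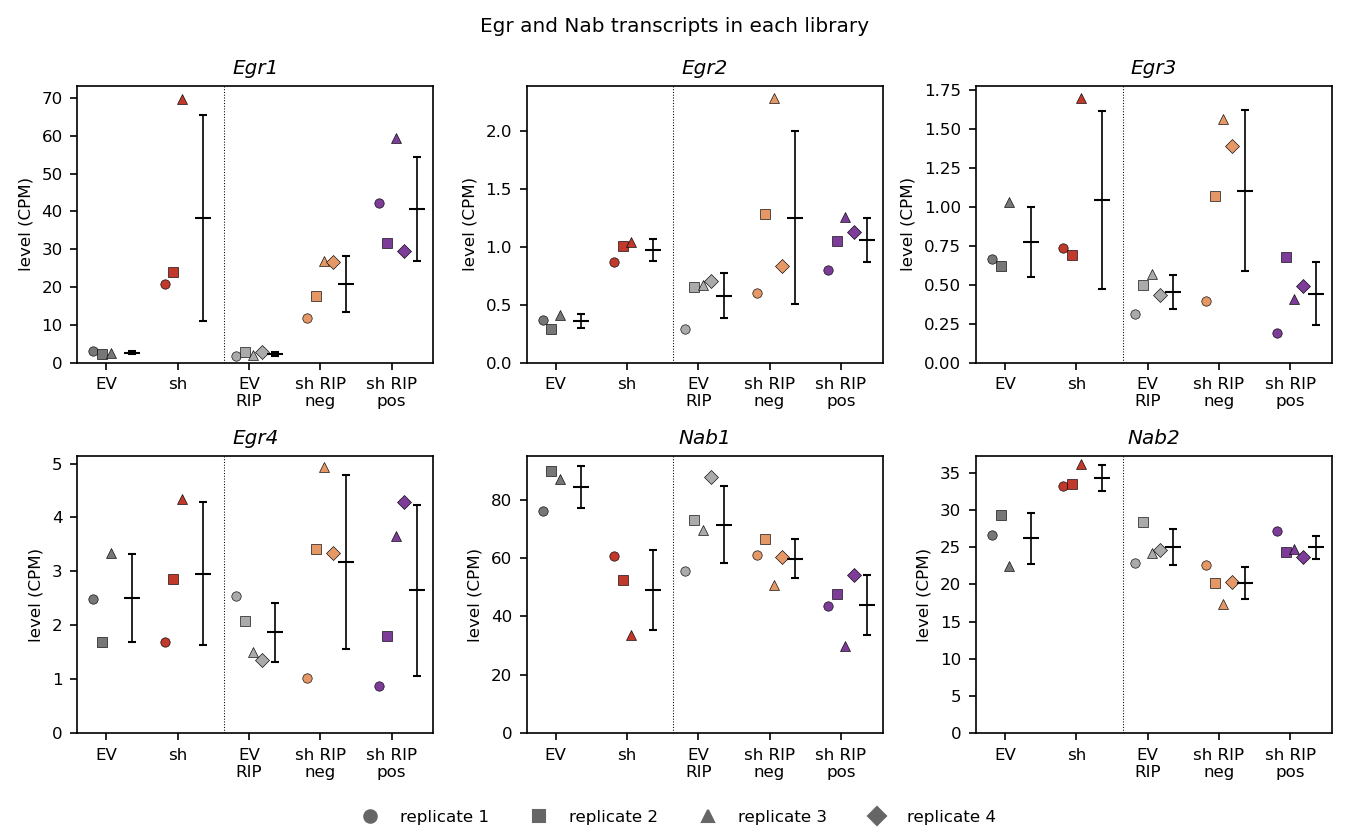
Level of each gene in CPM (vertical axis, from 0) in every library, by group (EV, shSmndc1 as sh, EV_RIP, negative and positive cells) and replicate symbol, with the group mean ± SD to the right of the points. The dotted line separates the experiments, and Egr1 lay at 1.81 to 3.05 CPM in the 7 empty vector libraries and at 11.9 to 69.8 CPM in the other 11.

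Egr1, the member best known as a rapid response gene, separated every shRNA library from every empty vector library. It stood at 3.05, 2.26 and 2.40 CPM in EV replicates 1 to 3, and at 20.9, 24.1 and 69.8 CPM in shSmndc1. In experiment 2 it stood at 1.81, 2.76, 1.88 and 2.82 CPM in EV_RIP, at 11.9, 17.6, 26.8 and 26.7 CPM in negative cells, and at 42.2, 31.5, 59.3 and 29.4 CPM in positive cells. No negative library reached a positive one, since the highest negative value was 26.8 and the lowest positive one 29.4 CPM. The log2 fold change was 3.90 ± 0.467 (SE) in shSmndc1 against EV and 3.14 ± 0.298 in negative cells against EV_RIP. Negative replicates 2 and 4, with 43.4 and 44.6 CPM of Smndc1, lay within the Smndc1 range of EV_RIP and held 17.6 and 26.7 CPM of Egr1. How Egr1 relates to the Smndc1 level was not tested.

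In positive cells Egr1 rose 17.5-fold against EV_RIP, from 2.32 ± 0.544 to 40.6 ± 13.7 CPM (SD, n = 4; log2 fold change 4.13 ± 0.307, edgeR adjusted p = 2.45e-05). It was higher in 4 of 4 libraries. Leaving out any 1 of the 12 libraries left it between 3.88 and 4.25. Bulk RNA cannot tell a larger share of cells with Egr1 from more Egr1 RNA per cell.

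Egr2, which directs myelination in Schwann cells and hindbrain patterning, was the lowest member in EV. It stood at 0.368, 0.292 and 0.412 CPM in EV and at 0.862, 1.01 and 1.04 CPM in shSmndc1, with no overlap. In the second experiment it stood at 0.292, 0.648, 0.664 and 0.704 CPM in EV_RIP, at 0.602, 1.28, 2.28 and 0.834 CPM in negative cells, and at 0.800, 1.05, 1.25 and 1.12 CPM in positive cells. Each positive library exceeded each EV_RIP library, while the negative libraries overlapped both groups. The log2 fold change was 1.44 ± 0.324 (SE) in shSmndc1 and 1.00 ± 0.400 in negative cells. In positive cells against EV_RIP the difference of 0.86 ± 0.389 did not pass the test (edgeR adjusted p = 0.134). It passed with the replicate number as a block (0.91, adjusted p = 0.0403), though those numbers do not pair these libraries.

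Egr3, an Egr protein with roles in muscle spindles and lymphocytes, showed no common direction. It stood at 0.663, 0.622 and 1.03 CPM in EV and at 0.733, 0.691 and 1.70 CPM in shSmndc1, where the groups overlapped. With the reporter it stood at 0.313, 0.50, 0.567 and 0.435 CPM in EV_RIP, at 0.393, 1.07, 1.56 and 1.39 CPM in negative cells, and at 0.190, 0.680, 0.409 and 0.489 CPM in positive cells. Within the reporter experiment the highest values were in negative replicates 2 to 4, and positive cells covered the range of EV_RIP. The log2 fold change was 0.42 ± 0.430 (SE) in shSmndc1 and 1.20 ± 0.447 in negative cells. In positive cells it was -0.06 ± 0.452 (edgeR adjusted p = 0.942), with a 95% interval from -0.95 to 0.83.

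Egr4, first described in neurons, was the most abundant Egr transcript per length in 6 of the 7 empty vector libraries. It stood at 2.48, 1.69 and 3.34 CPM in EV and at 1.68, 2.85 and 4.34 CPM in shSmndc1. In the reporter experiment it stood at 2.54, 2.07, 1.51 and 1.35 CPM in EV_RIP, at 1.02, 3.42, 4.93 and 3.34 CPM in negative cells, and at 0.863, 1.81, 3.65 and 4.28 CPM in positive cells. All groups overlapped, and replicate 1 was the lowest library of both sorted groups. The log2 fold change was 0.24 ± 0.376 (SE) in shSmndc1, 0.72 ± 0.481 in negative cells and 0.50 ± 0.473 in positive cells, and the last did not pass (edgeR adjusted p = 0.483, 95% interval from -0.43 to 1.42).

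**Figure D2:**
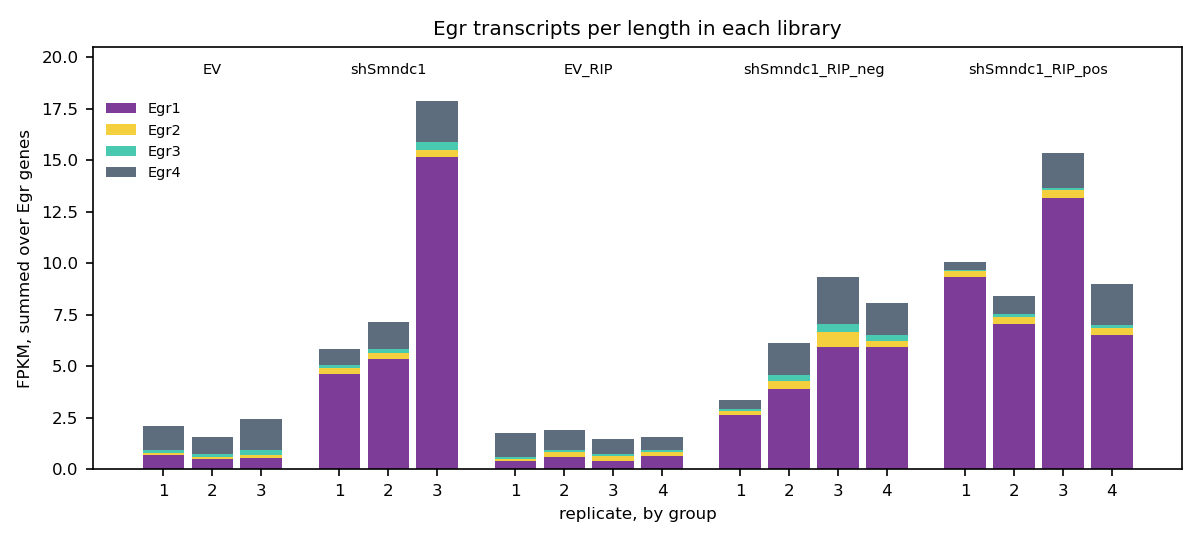
Deposited FPKM of the 4 Egr genes stacked for each library (vertical axis from 0), with replicates on the horizontal axis under their group. The stack was 1.45 to 2.45 FPKM high in empty vector libraries, with Egr4 the main layer in most of them, and 3.37 to 17.9 FPKM in the others, where Egr1 was the main layer.

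The makeup of the family's RNA differed between the groups. Egr1 made up 21.7% to 32.8% of the summed Egr FPKM in EV and 23.0% to 39.7% in EV_RIP. It made up 74.8% to 84.9% in shSmndc1, 63.5% to 77.8% in negative cells and 72.7% to 93.1% in positive cells. The share of Egr4 was 39.6% to 67.4% in empty vector libraries and 3.98% to 25.8% in the other libraries. These shares follow from the Egr1 values that led to the choice of the genes and carry no test. The ratio of summed Egr to summed Nab FPKM was at most 0.081 in empty vector libraries and reached 0.817 in shSmndc1 replicate 3 and 0.907 in positive replicate 3. This ratio compares RNA of all Egr genes, Egr4 included, and does not show which Egr proteins bind Nab proteins.

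Nab1, a corepressor of Egr proteins, was lower in shSmndc1 and in positive cells than in their controls. It stood at 76.2, 89.9 and 87.3 CPM in EV and at 60.8, 52.6 and 33.8 CPM in shSmndc1, with no overlap. Among reporter libraries it stood at 55.6, 73.1, 69.5 and 87.7 CPM in EV_RIP, at 61.2, 66.7, 50.6 and 60.4 CPM in negative cells, and at 43.7, 47.8, 29.8 and 54.2 CPM in positive cells. Every positive library was below every EV_RIP library, and negative cells overlapped both. The log2 fold change was -0.78 ± 0.199 (SE) in shSmndc1 and -0.26 ± 0.173 in negative cells. In positive cells Nab1 fell to 0.614 of its level in EV_RIP, from 71.5 ± 13.2 to 43.9 ± 10.3 CPM (SD, n = 4; log2 fold change -0.70 ± 0.173, edgeR adjusted p = 0.0161). The adjusted p stayed between 0.0129 and 0.0419 without any 1 of the 12 libraries.

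Nab2, the corepressor that Egr proteins are known to induce, differed in direction between the comparisons. It stood at 26.7, 29.4 and 22.5 CPM in EV and at 33.2, 33.4 and 36.3 CPM in shSmndc1. In the second experiment it stood at 22.9, 28.4, 24.2 and 24.6 CPM in EV_RIP, at 22.6, 20.2, 17.3 and 20.4 CPM in negative cells, and at 27.2, 24.3, 24.8 and 23.7 CPM in positive cells. It did not overlap between shSmndc1 and EV, where it was higher, nor between negative cells and EV_RIP, where it was lower, and positive cells lay within the range of EV_RIP. The log2 fold change was 0.39 ± 0.132 (SE) in shSmndc1 and -0.31 ± 0.116 in negative cells. In positive cells it was -0.0017 ± 0.115 (edgeR adjusted p = 0.994), with a 95% interval from -0.23 to 0.22.

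Nab2 counts may hold reads of its neighbours. Of its 2941 exonic bases, 35.7% lie opposite exons of the antisense gene Gm16229, 5.13% opposite Nemp1 and 1.36% opposite Stat6. The strand setting of the authors' counting is not given in the sources used here, so reads of these genes and of Nab2 cannot be told apart. Gm16229 stood at 16.2 ± 2.63 CPM in EV, 20.3 ± 0.700 in shSmndc1 (SD, n = 3), 13.5 ± 1.07 in EV_RIP, 10.3 ± 1.96 in negative cells and 13.0 ± 1.44 in positive cells (SD, n = 4). It was thus higher or lower in the same groups as Nab2. The other 5 genes share no exonic base with another gene.

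**Figure D3:**
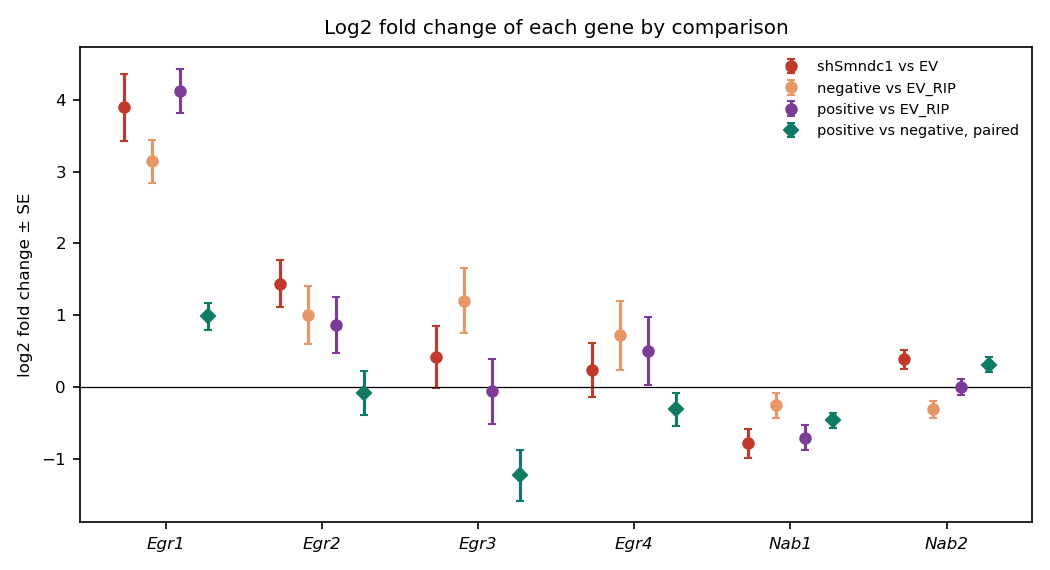
Log2 fold change ± SE (vertical axis) of each gene in shSmndc1 against EV, negative and positive cells against EV_RIP, and positive against negative cells in the paired fit. Egr1 lay between 3.14 and 4.13 in the first 3 comparisons and at 0.98 in the paired one, where Nab1 (-0.46) and Egr3 (-1.23) lay below 0.

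Counts over the family stand beside the rate over all genes. In shSmndc1 against EV, 2 of the 6 genes passed higher (7.22% of 18202 tested genes did) and 1 lower (7.5%), 14.7% in all. Groups did not overlap for 3 genes on the higher side (19.7% of all genes) and 1 on the lower side (19.8%), 39.5% in all. In negative cells against EV_RIP 1 passed higher (8.17% of 18897) and none lower (5.69%), 13.9% in all. There 1 gene lay fully above (7.24%) and 1 fully below its controls (7.2%), 14.4% in all. Nothing is read from these counts, since the genes were chosen on these comparisons. In positive cells against EV_RIP Egr1 rose (8.47% of genes did) and Nab1 fell (8.92%), 17.4% in all. Groups did not overlap for Egr1 and Egr2 on the higher side (11.7%) and Nab1 on the lower side (11.7%), 23.4% in all. With 2 or 3 of 6 genes, these counts are too small to set apart from the rates over all genes.

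Positive and negative cells were compared next, since they differ in the reporter signal and carry the same shRNA. Their mean Smndc1 level differed too, 37.0 ± 9.51 CPM in negative and 20.1 ± 4.51 CPM in positive cells (SD, n = 4). That difference did not pass without pairing (edgeR adjusted p = 0.127). Reporter signal and Smndc1 level therefore cannot be told apart in this comparison. Without pairing, 0 of 18897 genes passed in edgeR (0%). At an unadjusted p under 0.05 there were 2314 genes, 4 of the 6 members among them, and DESeq2 called 312 genes, Egr1 alone among the members. Egr1 and Nab2 lay fully above in positive cells (3.33% of genes did) and none of the 6 fully below (3.25%), 6.58% in all. Same-numbered positive and negative libraries deviated together, so a paired fit over these 8 libraries was added after the data were seen. It called 1517 of 17994 genes (8.43%), and 3 of the 6 members, 1 higher (3.71% of genes) and 2 lower (4.72%).

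In that paired fit Egr1 rose in positive cells by 0.98 ± 0.189 on the log2 scale (edgeR adjusted p = 0.00646). It was higher in 4 of 4 pairs, by 1.78, 0.83, 1.13 and 0.14 in pairs 1 to 4 on the scale of log2(CPM + 0.5). Without 1 pair the fitted value lay between 0.71 and 1.28 and the adjusted p between 0.00103 and 0.0291. Without both pairs that hold the shallow negative replicates 3 and 4 it was 1.33 ± 0.209 (edgeR adjusted p = 0.0359).

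Nab1 fell in the same fit by 0.46 ± 0.103 (log2 fold change -0.46, edgeR adjusted p = 0.014), and was lower in 4 of 4 pairs. Without pair 2 its adjusted p was 0.0995, and without both pairs 3 and 4 it was 0.0862. Egr3 fell by 1.23 ± 0.355 (log2 fold change -1.23, edgeR adjusted p = 0.0452), lower in 4 of 4 pairs. It lost its call without any 1 pair, with adjusted p between 0.0767 and 0.171. Nab2 was higher in 4 of 4 pairs but did not pass (0.31 ± 0.107, adjusted p = 0.0864). Egr2 (-0.08 ± 0.304, adjusted p = 0.902) and Egr4 (-0.31 ± 0.232, adjusted p = 0.442) did not pass either. Egr1 and Egr3, of the same family, thus moved in opposite directions between these cells.

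**Figure D4:**
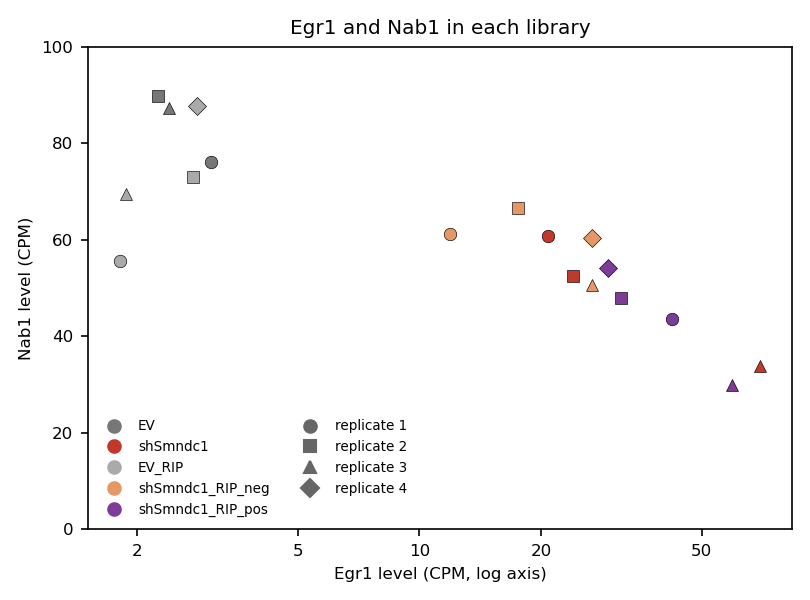
Nab1 level in CPM (vertical axis, from 0) against Egr1 level in CPM (horizontal log axis) in each of the 18 libraries, coloured by group, with a symbol per replicate number. The 2 libraries with the most Egr1, shSmndc1 replicate 3 and positive replicate 3, held 33.8 and 29.8 CPM of Nab1, the lowest values in the plot.

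Libraries of 1 group also differed among themselves. In shSmndc1, negative and positive cells alike, replicate 3 held the most Egr1 and the least Nab1. For shSmndc1 these were 69.8 and 33.8 CPM, for negative cells 26.8 and 50.6 CPM, and for positive cells 59.3 and 29.8 CPM. In negative cells replicate 4 held nearly as much Egr1, 26.7 CPM. In EV replicate 1 held the most Egr1 and the least Nab1 (3.05 and 76.2 CPM). EV_RIP went the other way: replicate 4 held the most of both genes (2.82 and 87.7 CPM) and replicate 1 the least of both (1.81 and 55.6 CPM). Replicate 3 of shSmndc1 also had the most Malat1 of its group, a nuclear RNA, with 1083 CPM against 174.5 and 303 CPM, and 4.58% of its counts were mitochondrial. Replicate 3 of positive cells had the least Malat1 of its group, 287 CPM. The part of these differences in the result was not tested. The replicate numbers of the 2 experiments are unrelated as far as the labels say.

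**Figure D5:**
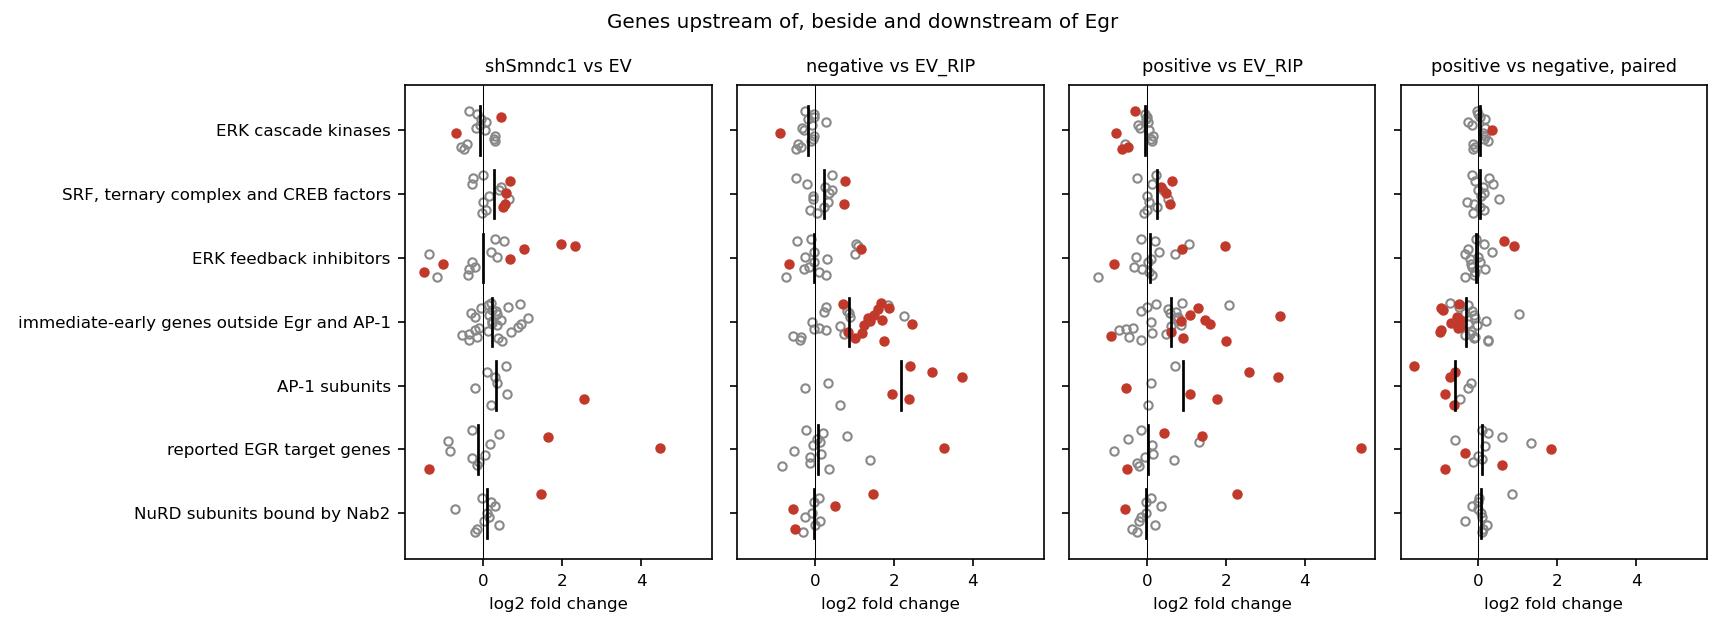
Log2 fold change (horizontal axis) of each tested gene in 7 lists (rows) for 4 comparisons (panels), filled red where the edgeR adjusted p is under 0.05, with a black bar at the list's median. In negative cells 5 of 8 AP-1 genes and 14 of 30 other immediate-early genes are filled above 0, and in the paired panel 5 and 10 of them are filled below 0.

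The lists that follow hold genes upstream of Egr, beside it and downstream, and were drawn up with earlier results of these data known. Upstream stands the ERK cascade. Of 15 kinases and their GTPases, 1 rose and 1 fell in shSmndc1, 1 fell in negative cells, and 4 fell in positive cells. These are 13.3%, 6.67% and 26.7% of the list, against 14.7%, 13.9% and 17.4% of all tested genes. The gene that rose was Hras (0.46, edgeR adjusted p = 0.0224), and Rps6ka5, Araf and Rps6ka3 fell in positive cells beside Mapk3. With 1 library left out, Hras stayed called in 1 of 6 fits, and Rps6ka5, Araf and Rps6ka3 in 6, 3 and 4 of 12. The 15 genes' median log2 fold changes were -0.08, -0.18 and -0.03, against medians within 0.01 of 0 over all tested genes. Mapk3, which encodes ERK1, fell in all 3 comparisons. It went from 123 ± 17.6 to 76.3 ± 7.66 CPM in shSmndc1 (SD, n = 3; log2 fold change -0.69, edgeR adjusted p = 0.017). From 142 ± 18.2 CPM in EV_RIP it went to 76.3 ± 20.9 in negative cells (-0.89, adjusted p = 0.0139) and 82.0 ± 18.7 in positive cells (-0.79, adjusted p = 0.0132; SD, n = 4). With 1 library left out Mapk3 stayed called in 3 of 6, 10 of 12 and 11 of 12 fits, with adjusted p up to 0.0768, 0.0584 and 0.0511.

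Among 14 SRF, ternary complex and CREB factors, 4 rose in shSmndc1, 2 in negative and 4 in positive cells, and none fell. These are 28.6%, 14.3% and 28.6% of the list, against 14.7%, 13.9% and 17.4% of all tested genes. The median log2 fold change was 0.28, 0.24 and 0.26. Crebbp, an acetyltransferase that CREB recruits, rose in each comparison, by 0.69, 0.76 and 0.63 (edgeR adjusted p = 0.0325, 0.017 and 0.024). Its relative Ep300 also rose in each, by 0.56, 0.73 and 0.60 (adjusted p = 0.0432, 0.0164 and 0.024). In shSmndc1 the count of 4 was 0 when EV replicate 2, EV replicate 3 or the second shSmndc1 library was left out. Calls over all genes also fell in those fits. With 1 library left out it ranged from 0 to 6 in negative and from 1 to 6 in positive cells. Crebbp and Ep300 each stayed called in 3 of 6 such fits in shSmndc1, 9 of 12 in negative and 8 of 12 in positive cells.

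Among 16 genes listed as feedback inhibitors of ERK, which dephosphorylate or bind its components, directions were mixed. The list also holds Dusp8, Dusp10 and Dusp16, phosphatases that act mainly on related kinases other than ERK. Dusp8 and Dusp16 are among the genes that rose in shSmndc1. In shSmndc1 4 rose and 2 fell, in negative cells 1 rose and 1 fell, and in positive cells 2 rose and 1 fell. Calls thus made up 37.5%, 12.5% and 18.8% of the list, against 14.7%, 13.9% and 17.4% of all tested genes. Dusp4, a nuclear phosphatase of ERK, rose in all 3, from 11.8 ± 4.89 to 24.3 ± 1.90 CPM in shSmndc1 (SD, n = 3; edgeR adjusted p = 0.0356). From 7.30 ± 1.44 CPM in EV_RIP it rose to 16.5 ± 4.33 in negative and 13.5 ± 2.37 CPM in positive cells (SD, n = 4; edgeR adjusted p = 0.0105 and 0.0126). Spred1, an inhibitor of Ras signalling, fell in all 3, by 1.02, 0.65 and 0.82 (log2 fold changes -1.02, -0.65 and -0.82, edgeR adjusted p = 0.0461, 0.0185 and 0.00465). With 1 library left out, Dusp4 stayed called in 3 of 6, 12 of 12 and 12 of 12 fits, and Spred1 in 2 of 6, 9 of 12 and 12 of 12.

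Other immediate-early genes passed in experiment 2 and seldom in experiment 1. In shSmndc1, 0 of 28 tested genes of this kind passed in edgeR, where 14.7% of all genes did, and 2 passed in DESeq2. At an unadjusted p under 0.05 there were 9, or 32.1%, against 32.5% of all genes. Of 8 AP-1 subunits only Junb rose there, from 8.56 ± 1.78 to 50.7 ± 54.3 CPM (SD, n = 3; edgeR adjusted p = 0.0336), and shSmndc1 replicate 3 alone held 113 CPM. Junb stayed called in 3 of 6 fits with 1 library left out. In negative cells 14 of 30 immediate-early genes rose and none fell, with a median log2 fold change of 0.87, and 5 of 8 AP-1 genes rose (median 2.17). These are 46.7% and 62.5%, where 8.17% of all tested genes rose. Fos went from 14.1 ± 6.58 to 109.6 ± 47.9 CPM, Jun from 54.9 ± 11.3 to 213 ± 84.9 and Atf3 from 15.0 ± 3.23 to 80.2 ± 38.9 CPM (SD, n = 4; edgeR adjusted p = 0.0112, 0.00801 and 0.00844). In positive cells 9 of 30 rose and 1 fell, Rgs2 (-0.91, adjusted p = 0.0181), and 4 of 8 AP-1 genes rose and 1, Fosl2, fell (-0.52, adjusted p = 0.0405; named after its value was seen). Calls there made up 33.3% and 62.5% of the genes tested, against 17.4% of all tested genes. Zfp36, which binds the ATTTA word of mRNAs and speeds their decay, rose from 6.73 ± 1.28 to 22.5 ± 7.61 CPM in negative and 26.9 ± 8.20 CPM in positive cells (edgeR adjusted p = 0.00737 and 0.00132). Rn7sk, depth and the endothelial sum given above also differed in negative cells, and their part in these counts was not tested. The difference between the 2 experiments was not tested.

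These counts lean on single libraries. Where they dropped, calls over all genes dropped too, in negative cells from 2620 to 159 without negative replicate 4. In negative cells the count of 14 was 3 without negative replicate 4, 8 without negative replicate 2 or EV_RIP replicate 1, and 9 without EV_RIP replicate 3. It was 0 for both lists without negative replicates 3 and 4, a fit in which few genes passed at all. The Egr1 log2 fold change there was 2.66. The same 5 AP-1 genes (Fos, Fosb, Jun, Junb and Atf3) stayed called in each of the 12 fits with 1 library left out. In positive cells the count of 9 was 2 without EV_RIP replicate 1, EV_RIP replicate 3, positive replicate 2 or positive replicate 4, and 3 without positive replicate 3.

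In the paired fit of positive against negative cells, where Egr1 rose, those of these genes that passed fell. Of 8 AP-1 genes 5 fell and none rose, and of 28 other immediate-early genes 10 fell and none rose, where 4.72% of all genes fell. The other 3 and 18 did not pass, among them Zfp36, which was at 0.25. The medians were -0.61 and -0.31, against -0.01 over all tested genes. Atf3 fell by 1.62 ± 0.141 (log2 fold change -1.62, edgeR adjusted p = 4.13e-05), Jun by 0.84 ± 0.115 (-0.84, adjusted p = 0.00102) and Jund by 0.61 ± 0.090 (-0.61, adjusted p = 0.00141), each lower in 4 of 4 pairs. Plk2, a stress kinase, fell by 0.97 ± 0.147 (-0.97, adjusted p = 0.00171), Nr4a1, an orphan nuclear receptor, by 0.46 ± 0.082 (-0.46, adjusted p = 0.00435), and Gadd45g by 0.95 ± 0.133 (-0.95, adjusted p = 0.00115). In the same fit Egr1 stood at 0.98 and Egr3 at -1.23. Without both pairs 3 and 4, 2 of the AP-1 genes and 0 of the 29 other immediate-early genes tested passed, and without pair 2 these were 3 and 3. Calls over all genes also fell in these fits. Rn7sk, depth and the mean Smndc1 level differ between the cells as given above, and their part was not tested.

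Downstream, the genes reported as Egr targets in other cells showed no common direction. Of 24, 12 were tested in experiment 1 and 14 in experiment 2. In shSmndc1 2 rose and 1 fell, in negative cells 1 rose, and in positive cells 3 rose and 1 fell, with medians of -0.13, 0.09 and 0.04. Calls made up 25%, 7.14% and 28.6% of those tested, against 14.7%, 13.9% and 17.4% of all tested genes. Icam1, a cell adhesion receptor, rose in all 3. It went from 0.086 ± 0.081 to 1.90 ± 1.66 CPM in shSmndc1 (SD, n = 3; edgeR adjusted p = 0.0167). From 0.049 ± 0.038 CPM in EV_RIP it went to 0.563 ± 0.305 in negative and 2.46 ± 2.56 CPM in positive cells (SD, n = 4; edgeR adjusted p = 0.0344 and 0.00281). Its control levels rest on a few reads, so fold changes are not given. Icam1 stayed called in 4 of 6, 6 of 12 and 12 of 12 fits with 1 library left out.

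F3, the gene of tissue factor and a classic Egr1 target, rose from 1.38 ± 0.192 to 4.35 ± 1.43 CPM in shSmndc1 (SD, n = 3; edgeR adjusted p = 0.0125). In positive cells it rose from 1.76 ± 0.224 to 4.65 ± 1.72 CPM (SD, n = 4; adjusted p = 0.00464). F3 stayed called in 4 of 6 and 12 of 12 fits with 1 library left out. Vegfa, an angiogenic growth factor, fell from 70.5 ± 17.0 to 27.0 ± 3.47 CPM in shSmndc1 (adjusted p = 0.00606) and from 63.8 ± 13.0 to 45.0 ± 7.11 CPM in positive cells (adjusted p = 0.0491), calls that stayed in 6 of 6 and 4 of 12 such fits. In the paired fit Icam1 (1.83) and Th (0.61), the enzyme of catecholamine synthesis, rose and Vegfa (-0.85) fell, with edgeR adjusted p of 0.0339, 0.0106 and 0.000693. The 4 tested myelin genes that Egr2 activates in Schwann cells gave no call against either control in edgeR. Unadjusted p-values under 0.05 numbered 1 in shSmndc1, 1 in negative and 0 in positive cells, and DESeq2 called 1 in shSmndc1. In the paired fit 1 of them, Mbp, rose (0.55, adjusted p = 0.00352).

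Of 11 NuRD subunits, the complex that Nab2 recruits, 1 rose in shSmndc1, 2 rose and 2 fell in negative cells, and 1 rose and 1 fell in positive cells. These are 9.09%, 36.4% and 18.2% of the list, against 14.7%, 13.9% and 17.4% of all genes. With 1 library left out the counts reached 0 in both directions in shSmndc1 and in negative cells. Chd3, an ATPase of the complex, rose in all 3. It went from 1.24 ± 0.537 to 3.44 ± 1.39 CPM in shSmndc1 (SD, n = 3; edgeR adjusted p = 0.0441). In experiment 2 it went from 0.890 ± 0.290 to 2.44 ± 1.07 in negative and 4.40 ± 0.636 CPM in positive cells (SD, n = 4; adjusted p = 0.0145 and 0.00132). Hdac1, a deacetylase, fell from 109.3 ± 16.6 to 74.9 ± 12.5 in negative and 74.1 ± 6.52 CPM in positive cells (adjusted p = 0.0219 and 0.0148). Chd3 stayed called in 1 of 6, 10 of 12 and 12 of 12 fits with 1 library left out, and Hdac1 in 8 of 12 and 10 of 12.

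Genes with the most similar pattern were found by the root mean square difference from each member over all 18 libraries, in log2(CPM + 0.5) centred on the controls of each experiment. The search covered 10184 or 10185 genes with a mean of at least 5 CPM in each experiment, which leaves Egr2, Egr3 and Egr4 out as candidates. For Egr1, which itself lay 2.7 from its controls by this measure, the nearest were Csf1 (1.15), Junb (1.27) and Nr1d1 (1.4). For Nab1 (0.55 from its controls) they were Stox2 (0.13), Tmem168 (0.15) and Map9 (0.16), and for Nab2 (0.24) they were Ncaph (0.10), Syne3 (0.11) and Tbc1d10b (0.12). For Egr2 (0.58) they were Zfp747 (0.20), Dnajc25 (0.20) and Sfswap (0.20), for Egr3 (0.47) Hook2 (0.21), Trmt61b (0.24) and Zfp865 (0.25), and for Egr4 (0.61) Hmg20b (0.30), Nfkbil1 (0.31) and BC028777 (0.32).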

How the data were processed

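RNA of 18 alphaTC1 libraries was read as 75 bp paired ends from stranded mRNA libraries, per the labels' protocols. The authors deposited raw counts per gene, and FPKM, which were found to equal those counts divided by gene length and a size factor. The build was GRCm38/mm10, and the tools named in the submitters' processing notes are DESeq2 1.30.0, STAR 2.7.5a and Picard 2.19.2. The counting program is not given in the sources used here.

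The 6 genes and the 15 gene lists were chosen with earlier results of these data known. Named are the 6 genes, up to 4 genes per list and comparison with the smallest p past the threshold, the 3 genes most similar to each member, and overlapping genes. Counts were tested here in edgeR 4.0.16 by quasi-likelihood (limma 3.58.1, R 4.3.3) after filterByExpr and TMM, with Benjamini-Hochberg adjustment over all tested genes and calls at 0.05. Experiment 1 (6 libraries) and experiment 2 (12 libraries) were fitted separately. CPM use TMM-scaled library sizes. Alternatives were RLE factors, DESeq2 1.42.0, no filter, a replicate block, only the groups compared, and libraries left out. The test was checked on simulated counts.

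Same-numbered positive and negative libraries correlated in their deviations from the group means, with r across genes of 0.697, 0.431, 0.201 and 0.418 for replicates 1 to 4. Each positive library correlated best with its own number. The pairing comes from these data and not from the labels. Between EV_RIP and negative libraries r was between -0.325 and 0.571, between EV_RIP and positive libraries between -0.056 and 0.491, and in experiment 1 between -0.028 and 0.297, so those numbers were not taken as pairs.

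The coordinates of 54821 of the 55487 genes are identical in GENCODE M21, used here for exons. For 1 gene that the naming rule covers, the result is not reported here.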

Additional observations from a re-analysis of the deposited data

Results flagged for a closer look

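The Egr2 level of EV_RIP replicate 1, 0.292 CPM, was far below the other 3 libraries of its group, which lay between 0.648 and 0.704 CPM. The gap to the nearest library was 0.864 of the group's range, above Dixon's critical value for 4 samples. Of 18 groups examined this was the only one, and chance flags about 1 in 20. The level rests on 14 counts, and the same library had 0.564% mitochondrial counts, where the other EV_RIP libraries had 2.29% to 3.86%.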

How the results depend on the processing

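Levels under about 1 CPM limit what can be said of Egr2 and Egr3, whose lowest libraries hold 14 and 9 counts. EV_RIP and sorted cells may differ by the sort itself, which cannot be told apart from the shRNA. Egr1 kept its direction against the controls in all settings, and in positive cells also its call.

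With 1 library left out, calls over all genes ranged from 181 to 3336 in shSmndc1 (181, 550 and 627 when EV replicate 3, EV replicate 2 or the second shSmndc1 library was left out), from 159 to 5831 in negative cells, from 1258 to 4246 in positive cells and from 0 to 517 between them. In negative cells the count was 539 and 1122 without EV_RIP replicate 1 or 3, and 5831, 1094 and 159 without negative replicate 1, 3 or 4, and without negative replicate 2 it was also lower by over 1.5 times. In positive cells it was 1565 and 1868 without EV_RIP replicate 1 or 3, and 1258, 2073 and 1929 without positive replicate 2, 3 or 4. Members called ranged from 1 to 3, 1 to 4, 2 to 2 and 0 to 0. Genes called in the 8 lists around Egr ranged from 1 to 18, 9 to 50, 11 to 39 and 0 to 6, against 17, 29, 32 and 0 with all libraries.

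Without the filter 4165 genes and 33 list genes were called in shSmndc1, and 150 genes, 3 list genes and 1 member between positive and negative cells. DESeq2 called 4070 genes and 26 list genes in shSmndc1, 2 members in negative cells, and 312 genes, 4 list genes and 1 member between positive and negative cells. The replicate block over all 12 libraries called 4597 genes, 44 list genes and 3 members in negative cells, 5079 genes in positive cells (Egr2 then at adjusted p = 0.0403 in edgeR), and 78 genes and 3 list genes between them. In experiment 1 the block changed no count by over 1.5 times. With only the 2 groups compared, 1289 genes were called in negative cells, and without negative replicates 3 and 4 these were 4 genes and 0 list genes.

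Paired, positive against negative cells gave 1517 genes, 23 list genes and 3 members. Without pair 1, 2, 3 or 4 the genes were 1580, 272, 1078 and 853, the list genes 24, 8, 16 and 17 and the members 2, 1, 2 and 2. Without both pairs 3 and 4 they were 92, 4 and 1.

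Signs turned only for differences that did not pass. Nab2 in positive cells was 0.0112 with RLE factors, 0.0106 in DESeq2, 0.0117 with 2 groups only, and 0.0759, 0.00385, 0.0187 and 0.017 without EV_RIP replicate 2, negative replicate 1, positive replicate 2 or 4. Egr3 in positive cells was 0.00613, 0.0743 and 0.203 without EV_RIP replicate 2 or 3 or positive replicate 1. Egr3 and Egr4 in shSmndc1 were -0.119 and -0.132 without its replicate 3. Between positive and negative cells, Egr2 was 0.196 and Egr4 0.0251 without negative replicate 3, 0.138 and 0.225 without negative replicates 3 and 4, and Egr4 0.0781 without positive replicate 1. Paired, Egr2 was 0.000604 and 0.139 without pair 2 or 3, and 0.0224 without both pairs 3 and 4. With 1 library left out, the other ends of these ranges were -0.0463 for Nab2 and -0.342 for Egr3 in positive cells, 0.674 for Egr3 and 0.515 for Egr4 in shSmndc1, and -0.375 for Egr2 and -0.552 for Egr4 between positive and negative cells. The cause was not tested.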
